A study of Homo sapiens with 16 samples.

Results

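The integrins and the intercellular adhesion molecules (ICAMs) were followed over 5 conditions in OCI-AML3, an established human acute myeloid leukemia cell line. The 31 genes were taken by symbol, as 18 integrin α chains, 8 integrin β chains and 5 ICAMs. Each symbol matched 1 Ensembl identifier of the 62700 genes in the deposited table of normalized read counts. Of the 31, 24 averaged 10 normalized counts or more across the 16 libraries and were tested, namely 14 α chains, 6 β chains and 4 ICAMs.

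Cells were left untreated (n = 4) or received 1 of 4 treatments for 3 h, which were ATRA, Am80, and each retinoid combined with inhibitors (n = 3 each). ATRA (all-trans retinoic acid) is the natural ligand of the retinoic acid receptors, and Am80 (tamibarotene) is a synthetic retinoid selective for retinoic acid receptor α in which an aromatic amide takes the place of the polyene chain. Both were used at 0.1 µM according to the methods of the study. The inhibitors were GSK-LSD1 at 0.1 µM, which blocks the histone demethylase LSD1, and MB3 at 100 µM, which blocks the histone acetyltransferase GCN5. The inhibitors were always given together and always with a retinoid, so neither inhibitor can be told apart from the other, and their effect without a retinoid was not measured here. No label ties the libraries of a group to separate cultures, so p-values measure the spread between these libraries, which may be technical.

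Integrins are receptors that hold cells to matrix and to other cells, and each is a pair of 1 α and 1 β chain. In leukocytes the β2 chain (ITGB2, CD18) pairs with αL (ITGAL, CD11a), αM (ITGAM, CD11b), αX (ITGAX, CD11c) or αD (ITGAD, CD11d), and these receptors bind ICAMs on neighbouring cells, among other ligands. αM with β2 is complement receptor 3 of granulocytes and monocytes, and CD11b is the surface marker widely used to follow retinoid-driven myeloid differentiation. The α4 and α5 chains pair with β1 to bind VCAM-1 and fibronectin. The remaining chains bind laminins (α3, α6, α7), collagens (α1, α2, α10, α11) or ligands with an RGD tripeptide (αIIb, α8, αV).

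Total reads per library ranged from 11963898 to 33789718, a 2.82-fold range. The deepest library, Am80 replicate 2, also lay farthest from the rest of its own group. Its mean Euclidean distance, over the most variable of the tested genes on the log2 scale, was 25.98. Am80 replicates 1 and 3 had distances of 19.7 and 20.2. Untreated libraries were nearly as far from their own group, at 22.5 to 25.7. Without that library 11 members instead of 10 were called with Am80 against untreated cells. All 8 myeloid markers examined (SPI1, CEBPA, CD33, ANPEP, MPO, LYZ, CD14, FCGR1A) passed the filter. All 5 T cell markers had at most 3 reads in any library, and no erythroid or epithelial, stromal and endothelial marker passed (summed levels of 1.29 to 12.3 and 0 to 9.97 normalized counts over all libraries). Of 5 platelet markers only GP1BA passed, with summed levels of 35.5 to 75.2 normalized counts over all libraries and no reads of PF4. In bulk RNA a change in the number of cells that express a gene and a change in RNA per cell cannot be told apart.

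The DNA just before the start of 3 members is shown because ICAM1 and ITGA6 changed most with the retinoids and ITGAM is the marker of the response. The sequences are from RefSeq promoter windows (GRCh38.p14, 250 bases before to 50 after each start), which matched 21 of the 31 genes in 28 windows. Capitals mark GGAAATTCC (an NF-κB site), GAGGAA (the core bound by PU.1) or a retinoic acid receptor half-site (AGGTCA together with the variants AGTTCA as well as GGGTCA and likewise GGTTCA), searched on both strands. For ICAM1 only 30 bases are given, since a longer annotated transcript of the gene covers the window.
ICAM1, chr19:10270923-10270952, plus strand: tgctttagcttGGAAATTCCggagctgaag
ITGAM, chr16:31259725-31259966, plus strand: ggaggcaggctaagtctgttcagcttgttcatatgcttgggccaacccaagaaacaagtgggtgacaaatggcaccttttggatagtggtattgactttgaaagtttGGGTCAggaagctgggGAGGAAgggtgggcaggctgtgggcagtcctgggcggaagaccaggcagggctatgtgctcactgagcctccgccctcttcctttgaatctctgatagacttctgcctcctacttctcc
ITGA6, chr2:172427086-172427335, plus strand: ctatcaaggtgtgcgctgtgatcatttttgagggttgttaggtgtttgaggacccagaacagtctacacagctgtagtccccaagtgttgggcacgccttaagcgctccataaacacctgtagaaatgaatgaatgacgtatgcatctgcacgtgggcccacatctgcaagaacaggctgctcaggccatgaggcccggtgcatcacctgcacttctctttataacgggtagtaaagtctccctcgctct
The ITGA6 stretch held none of these letters. GGAAATTCC occurred in ICAM1 alone among the 28 member windows and in 0.461% of all 35116 windows. GAGGAA occurred in windows of 9 members (ICAM3, ICAM4, ITGA11, ITGAE, ITGAM, ITGAV, ITGB1, ITGB5 and ITGB7). These were 10 of the 28 member windows, beside 27.9% of all windows. At least 1 half-site occurred in windows of 11 members, ITGAM and ICAM1 among them. These were 13 of the 28 member windows, beside 38.6% of all windows. The 2 copies of a half-site in direct repeat at spacings of 1, 2 or 5 bases, the form that retinoic acid receptor dimers bind, were found in no member window (0.131%, 0.0399% and 0.0883% of all windows). These are matches of letters within short windows and say nothing about binding.

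Levels between genes were compared as normalized counts per kilobase of annotated exons. In untreated cells ITGB2 stood far above every other member at 2342 ± 152 per kilobase (SD, n = 4). The 3 chains next in order were ITGB1 at 621 ± 19.8, ITGA5 at 583 ± 22.3 and ITGA4 at 279 ± 18.95 per kilobase, the chains of the fibronectin and VCAM-1 receptors. The library ranges of ITGB1 and ITGA5 overlapped, whereas those of ITGB2 and ITGB1, and of ITGA5 and ITGA4, did not. Among the α partners of β2, ITGAL was highest at 128 ± 10.1 per kilobase, followed by ITGAX at 16.5 ± 2.60 and ITGAM at 8.73 ± 1.47. ITGAM thus ranked number 15 of 26 integrin chains in untreated cells, and its range overlapped that of ITGA2 above it but not that of ITGA2B below it. Of the 23 pairs of neighbours in the order of the 24 tested members, 15 had overlapping library ranges. Among the ICAMs the order was ICAM5 at 21.7 ± 4.09, ICAM1 at 15.2 ± 0.896, ICAM2 at 4.302 ± 1.34 and ICAM3 at 3.78 ± 1.05 per kilobase.

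**Figure D1:**
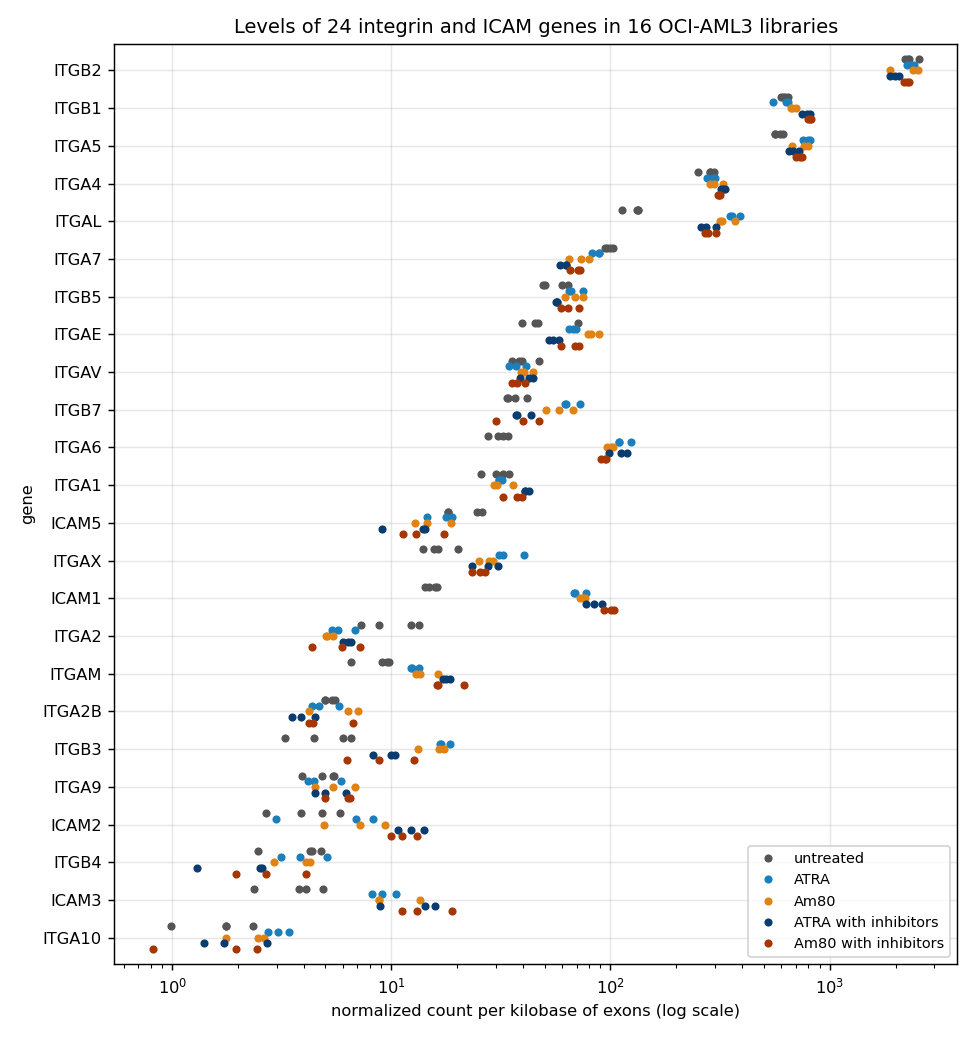
Normalized counts per kilobase of exons (log axis) of the 24 tested members, 1 point per library, coloured by condition and ordered by the untreated mean. ITGB2 lies above all others in every condition, ITGAM sits in the lower part of the order, and ICAM1 and ITGA6 move right of their untreated points in all 4 treated groups.

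ITGAM ranked number 14 or 15 among the 26 chains in every library, ITGB2 stayed first in all 5 group means, and ITGA6 went from number 11 to number 6 in each treated group. As a share of the summed per-kilobase level of the 4 β2 partners, ITGAM made up 5.74% ± 1.18 in untreated cells (SD, n = 4), 3.09% ± 0.304 with ATRA and 3.76% ± 0.194 with Am80 (SD, n = 3 each). The untreated libraries spanned 4.19% to 6.99%, the ATRA libraries 2.78% to 3.39% and the Am80 libraries 3.56% to 3.95%, so the share was lower with either retinoid in every library, although no test was run on it. With inhibitors it was 5.54% ± 0.626 beside ATRA and 5.52% ± 0.997 beside Am80 (SD, n = 3 each), within the untreated range. ITGAL made up most of the sum throughout, from 83.5% ± 1.53 in untreated cells to 88.99% ± 0.516 with Am80.

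The 7 members under the filter had few reads or none. ITGAD, the fourth β2 partner, and ICAM4, an erythroid ICAM, had no read in any library, and a count of 0 allows up to 3 reads per library by counting error. All exon bases of ICAM4 also lie in an antisense gene (AC011511.5), and no strand setting of the counting is given in the sources used here. ITGB6, an epithelial chain, had 1 read in all, and ITGA8 at most 1 read per library. ITGB8 had 0 to 6 reads, ITGA11 1 to 12 and ITGA3, a laminin receptor chain, 5 to 19 reads per library. The filter kept these genes out of the main test, so no change is reported for them.

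More members rose than fell in each comparison with untreated cells, and ICAM1, ITGA6, ICAM3, ITGAL and ITGB3 rose in all 4, while ITGA2 fell in all 4. A member was called when limma's Benjamini-Hochberg adjusted p was under 0.05 and the fold change over 1.5 on the log2(normalized count + 1) scale. With ATRA 7 of 24 members rose and 1 fell, beside 6.52% of all 14643 tested genes called higher and 2.94% called lower. With Am80 9 rose and 1 fell (6.41% and 3.76% of all genes). With ATRA and inhibitors 8 rose and 4 fell (14.2% and 14.8%), and with Am80 and inhibitors 8 rose and 2 fell (12.9% and 13.1%). As shares of the 24, the members called higher were 29.2%, 37.5%, 33.3% and 33.3% in this order, and those called lower were 4.17%, 4.17%, 16.7% and 8.33%, so the shares called higher stood above those over all genes and the shares called lower near or below them, with no test of either. The median log2 fold change of the 24 members was 0.35, 0.33, 0.20 and 0.26 in these 4 comparisons, and that of all tested genes was -0.02, -0.01, 0.00 and 0.00. The 4 comparisons share the untreated libraries and are not independent of each other.

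In all, 6 members rose in all 4 treated groups, namely ICAM1, ICAM3, ITGA6, ITGAL, ITGAX and ITGB3, and ITGA2 fell in all 4. By role, the calls with ATRA were 3 α chains, 2 β chains and 2 ICAMs higher and 1 α chain lower. Of the 24, 14 were called in at least 1 comparison, and 10 (ITGA1, ITGA2B, ITGA4, ITGA5, ITGA9, ITGA10, ITGAV, ITGB1, ITGB2 and ITGB5) in none. The shares of all genes called in at least 1 comparison, or in all 4 against untreated cells, were not counted. Scaling to total reads instead of the deposited factors shifted the median of all genes by up to 0.186 on the log2 scale. With that scaling, all genes split into 1451 higher and 3100 lower with ATRA and inhibitors (2083 and 2172 with the deposited factors), and into 1232 and 2991 with Am80 and inhibitors (1896 and 1918), while Am80 alone gave 826 and 739 (939 and 551). The members then split into 7 higher and 4 lower, 7 and 3, and 9 and 1 in the same order.

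**Figure D2:**
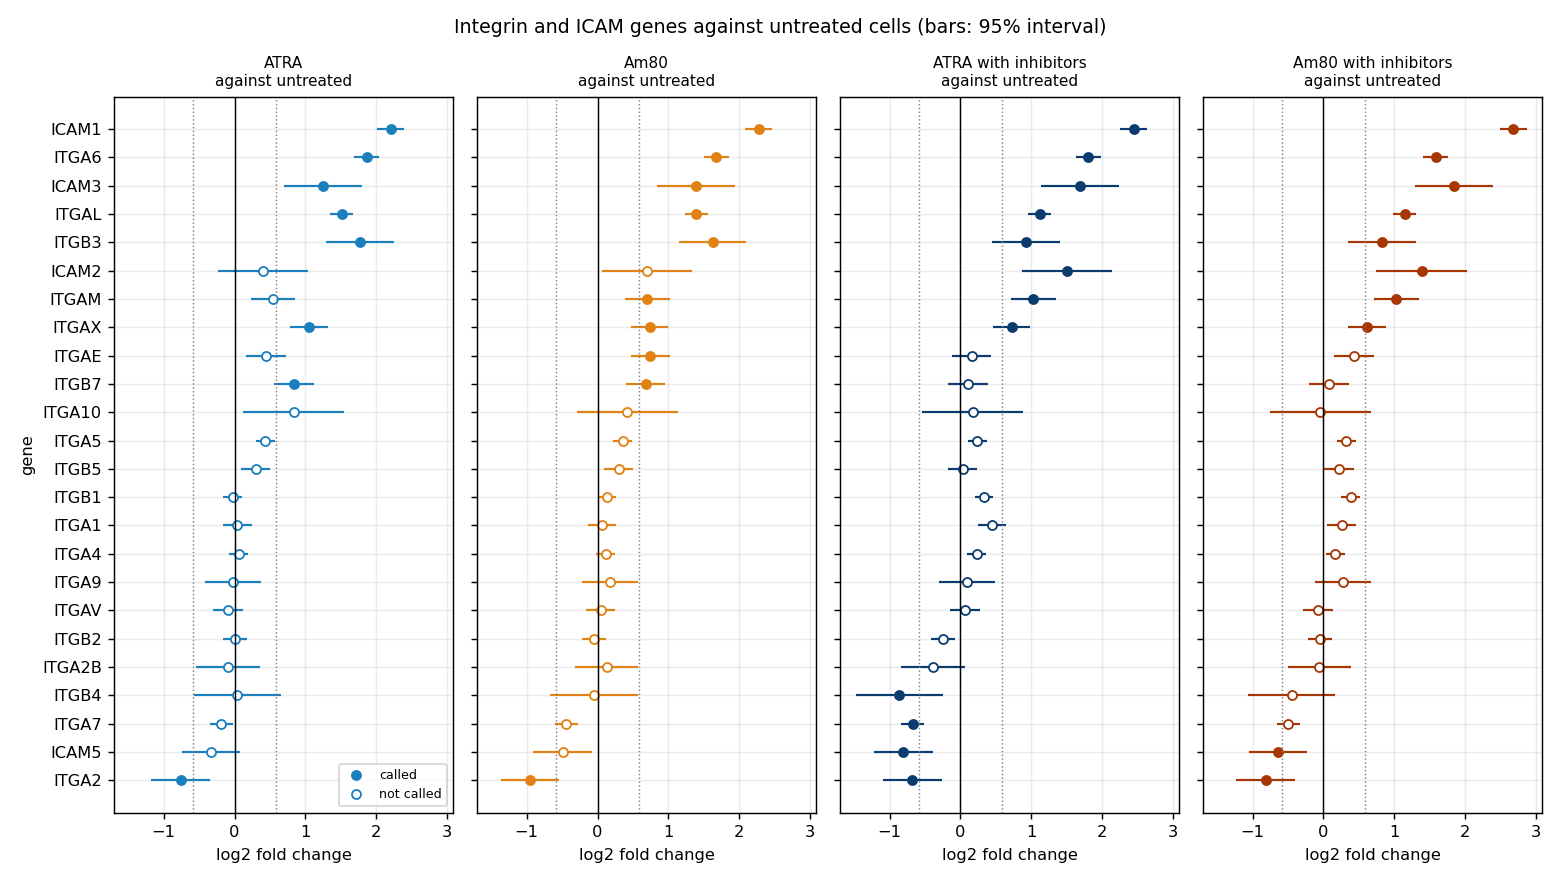
log2 fold changes against untreated cells for the 24 tested members (points, with 95% intervals), in 1 panel per treated group. Filled points are called, open points are not, and dotted lines mark 1.5-fold. ICAM1 leads in each panel, followed in varying order by ITGA6, ICAM3, ITGAL and ITGB3 or ICAM2, and ITGA2 is the lowest or among the lowest.

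ITGAM (ENSG00000169896.18, chr16:31259967-31332892) rose in 3 of the 4 treated groups from a low level. Untreated libraries held 51.6, 55.4, 37.4 and 54.3 normalized counts, those with ATRA 76.2, 69.9 and 70.6, and those with Am80 73.3, 76.6 and 93.3. Libraries with ATRA and inhibitors held 101, 105 and 97.8, and those with Am80 and inhibitors 93.2, 122 and 91.4. Every treated library was above every untreated one, and the libraries with inhibitors reached the highest values, although 1 Am80 library overlapped those with Am80 and inhibitors. The log2 fold change was 0.55 ± 0.15 with ATRA (SE, adjusted p = 0.0103 by limma), under the 1.5-fold limit, and 0.70 ± 0.15 with Am80 (SE, adjusted p = 0.00116). It was 1.03 ± 0.15 in the ATRA combination and 1.03 ± 0.15 in the Am80 combination (SE, adjusted p = 6.84e-06 and 7.26e-06). The call with Am80 was lost without untreated replicate 3, the lowest library, at 0.58, while ATRA crossed the limit without untreated replicate 2 or 4, at 0.60 and 0.59.

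ITGAL (ENSG00000005844.19, chr16:30472658-30523185), the α chain of the lymphocyte function antigen LFA-1, rose in all 4 treated groups from a far higher level per kilobase than ITGAM. Untreated libraries held 852, 864, 867 and 731 normalized counts, those with ATRA 2263, 2521 and 2311, and those with Am80 2095, 2053 and 2392. With inhibitors the counts were 1771, 1668 and 1963 beside ATRA and 1739.7, 1795 and 1968 beside Am80. No treated library came near the untreated range, and the libraries with inhibitors lay below those with the same retinoid alone. The log2 fold changes against untreated cells were 1.51 ± 0.08, 1.39 ± 0.08, 1.12 ± 0.08 and 1.15 ± 0.08 (SE) in the order of the groups, with limma adjusted p from 2.94e-12 to 2.49e-10.

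ITGAX (ENSG00000140678.17, chr16:31355134-31382997), the α chain of complement receptor 4, gave 142, 111, 116 and 98.6 normalized counts in untreated libraries, 228, 285 and 218 with ATRA and 178, 198 and 205 with Am80. With inhibitors it gave 218, 165 and 196 beside ATRA and 166, 188 and 180.2 beside Am80. Treated and untreated libraries did not overlap. The log2 fold change was largest with ATRA at 1.06 ± 0.13 and smallest with Am80 and inhibitors at 0.61 ± 0.13 (SE, limma adjusted p = 1.71e-06 and 3.99e-04). The latter lies close to the limit and was not called when untreated replicate 4 was left out (0.54) or when replicate 2 of the Am80 combination was (0.57). Scaling to total reads ended the call in both groups with inhibitors (0.57 and 0.43). Of the 51-base windows of ITGAM 0.426% also occur in ITGAX. Of those of ITGAX 2.30% also occur in other genes, ITGAD and ITGAM among them. How reads in such windows were assigned was not tested.

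ITGB2 (ENSG00000160255.19, chr21:44885953-44931989), the common partner of these chains, was not called in any comparison. Untreated libraries held 15677, 15052, 15521 and 17412 normalized counts, those with ATRA 15366, 15945 and 16500.5 and those with Am80 16348, 12822 and 17207. The groups overlapped, with 1 low Am80 library, replicate 2. The combinations gave 14028, 12867 and 13443 beside ATRA and 15728, 15301 and 14912 beside Am80. The 95% interval of the log2 fold change was -0.17 to 0.17 with ATRA and -0.22 to 0.12 with Am80, inside the 1.5-fold limit. With ATRA and inhibitors it was -0.41 to -0.07 (adjusted p = 0.015 by limma), with all 3 libraries below the untreated ones.

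**Figure D3:**
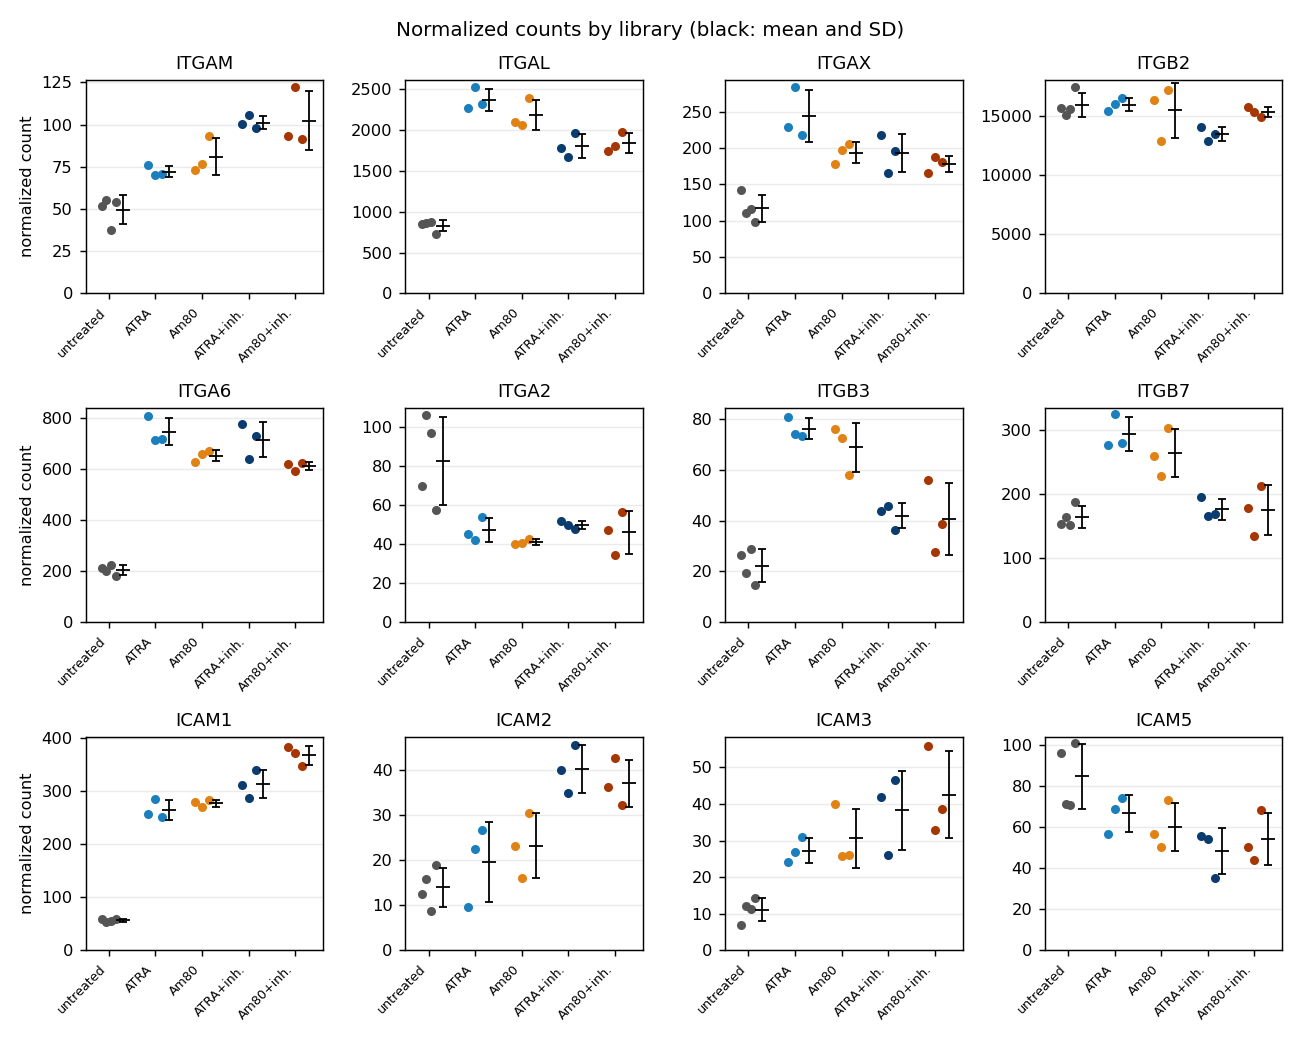
Normalized counts of 12 members in each of the 16 libraries by condition (inh. stands for inhibitors), with black marks for the mean and SD (n = 4 untreated, n = 3 otherwise) and axes from 0. ITGAL, ITGA6 and ICAM1 separate fully from untreated cells, ITGB2 does not, and ITGB3 and ITGB7 fall back when inhibitors are added.

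Among the other α chains, ITGA6 (ENSG00000091409.16, chr2:172427354-172506282), a laminin receptor chain that pairs with β1 or β4, changed most. Untreated libraries held 212, 200.4, 223 and 179 normalized counts, those with ATRA 807, 713 and 716 and those with Am80 628, 659 and 669.7. Where inhibitors were added, the counts were 775, 640.1 and 729.7 beside ATRA and 619, 594 and 622 beside Am80. The lowest treated library was far above the highest untreated one, and adding inhibitors moved it by -0.06 beside ATRA and -0.09 beside Am80 on the log2 scale. The log2 fold changes were 1.87 ± 0.08, 1.68 ± 0.08, 1.81 ± 0.08 and 1.59 ± 0.08 (SE) with ATRA, Am80 and the 2 combinations, with limma adjusted p from 2.68e-13 to 2.34e-12. Of its β partners, ITGB1 and ITGB4 were not called with ATRA and had log2 fold changes of -0.03 and 0.04.

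ITGA2 (ENSG00000164171.11, chr5:52989326-53094779), the α chain of a collagen receptor, was the only member that fell in all 4 comparisons with untreated cells. Untreated libraries ranged widely, at 69.7, 106, 97.2 and 57.6 normalized counts. Those with ATRA held 45.3, 42.3 and 54.02, those with Am80 39.9, 40.4 and 42.7, those with ATRA and inhibitors 51.7, 49.99 and 47.7 and those with Am80 and inhibitors 47.1, 34.4 and 56.6. Treated libraries were all below untreated ones, the closest being 1 library of Am80 with inhibitors at 56.6 against 57.6. The gene fell by 0.76 with ATRA, by 0.95 with Am80, and by 0.68 and 0.82 with the combinations on the log2 scale (SE 0.20 each, limma adjusted p from 8.75e-04 to 0.00658). The call with ATRA and inhibitors was lost without untreated replicate 2, at -0.54.

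ITGA7 (ENSG00000135424.19, chr12:55684568-55716043), the laminin receptor chain best known from muscle, gave 602, 635, 617 and 651 normalized counts in untreated libraries, 565, 565 and 522 with ATRA and 467, 413 and 508 with Am80. With inhibitors it gave 401, 399 and 375 beside ATRA and 460.4, 418 and 454 beside Am80. Every treated library was below the untreated ones. The size of the change passed the limit only with ATRA and inhibitors, at -0.68 ± 0.08 (SE, limma adjusted p = 2.55e-07), and was -0.19 ± 0.08, -0.44 ± 0.08 and -0.50 ± 0.08 (SE) in the remaining groups.

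ITGAE (ENSG00000083457.12, chr17:3714628-3801243), CD103, which pairs with β7 and binds E-cadherin, was called with Am80. Untreated libraries held 299.8, 312, 262 and 473 normalized counts, with replicate 4 high, those with ATRA 430.0, 461 and 449 and those with Am80 525, 587 and 543. Counts in the combinations were 349, 389 and 363 beside ATRA and 477, 459 and 398 beside Am80, and only the Am80 group lay clear of all 4 untreated libraries. The log2 fold change was 0.75 ± 0.13 with Am80 (SE, limma adjusted p = 1.96e-04) and 0.44 ± 0.13 with ATRA (SE, adjusted p = 0.0179). The direct difference of Am80 and ATRA was 0.30 ± 0.14 (SE, adjusted p = 0.347), so a difference between the retinoids was not shown. Without untreated replicate 4 ITGAE was also called with ATRA (0.62) and with Am80 and inhibitors (0.61). HASPIN, on the opposite strand, covers 6.41% of the ITGAE exon bases at a mean of 590 normalized counts, and its part in the ITGAE counts was not tested.

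The abundant fibronectin and VCAM-1 receptor chains stayed under the limit. ITGA5 (ENSG00000161638.11) ranged from 4272 to 4621 normalized counts in untreated libraries and from 5734 to 6146 with ATRA, without overlap, and its log2 fold change was 0.43 ± 0.06 (SE, limma adjusted p = 2.92e-05). With Am80 and the combinations it was 0.35, 0.23 and 0.32. ITGA4 (ENSG00000115232.14) ranged from 1992 to 2339 in untreated libraries and had log2 fold changes of 0.06, 0.12, 0.23 and 0.17 in the order of the groups. ITGB1 (ENSG00000150093.20), their common partner, had 3605 to 3881 normalized counts in untreated libraries and 4479 to 4914 with ATRA and inhibitors. Its log2 fold changes were -0.03 and 0.14 with the retinoids alone and 0.34 and 0.38 with inhibitors (adjusted p = 9.18e-05 and 2.33e-05 by limma), so the 2 groups with inhibitors lay above untreated cells by less than 1.5-fold. About 14.97% of its 51-base windows also occur in another gene (AC022149.1), whose part in its count was not tested. For these 3 chains all 4 of the 95% intervals against untreated cells lay within 1.5-fold.

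Of the remaining α chains none was called. The collagen receptor chain ITGA1 had 474 to 640.2 normalized counts in untreated libraries and 758 to 789.8 with ATRA and inhibitors, a log2 difference of 0.44 ± 0.10 (SE, limma adjusted p = 5.02e-04) that stayed under the limit. ITGAV, the vitronectin receptor chain, differed by -0.09 to 0.06 over the 4 groups. ITGA2B (αIIb, the platelet fibrinogen receptor chain) and ITGA9 had 27.7 to 30.7 and 32.3 to 45.4 normalized counts in untreated libraries, and ITGA10 6.23 to 14.8. The ATRA libraries of ITGA10 lay above its untreated ones at 17.3 to 21.6, with a log2 difference of 0.84 ± 0.34 (SE, adjusted p = 0.0835 by limma).

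Among the β chains, ITGB3 (ENSG00000259207.10, chr17:47253846-47311816), the partner of αV and αIIb, changed most. Untreated libraries held 26.5, 19.4, 28.6 and 14.4 normalized counts, those with ATRA 80.98, 74.2 and 73.5 and those with Am80 76.1, 72.5 and 57.9. With inhibitors the counts were 43.9, 45.6 and 36.4 beside ATRA and 55.9, 27.5 and 38.6 beside Am80. Both groups without inhibitors lay above all libraries with inhibitors and all untreated ones, and 1 library of Am80 with inhibitors fell inside the untreated range. The log2 fold changes were 1.78 ± 0.23, 1.62 ± 0.23, 0.93 ± 0.23 and 0.83 ± 0.23 (SE, limma adjusted p from 4.26e-06 to 0.00437). The last was lost without replicate 1 of Am80 with inhibitors, at 0.58 (adjusted p = 0.0503 by limma). GP1BA, a subunit of the platelet receptor for von Willebrand factor and the only platelet marker tested, had log2 differences of 0.57, -0.01, -0.08 and -0.22 in the same order, none of them called, and fell by 0.65 on adding inhibitors to ATRA (limma adjusted p = 0.00771). The summed level of the 5 platelet markers was 35.5 to 69.3 normalized counts in untreated libraries, 69.01 to 75.2 with ATRA, 45.5 to 51.3 with Am80, 43.5 to 54.6 in the ATRA combination and 41.7 to 53.6 in the Am80 combination, with PF4 at 0, and their part in the changes of ITGB3 was not tested. A same-strand annotated gene (AC068234.1), itself without reads, covers 51.6% of its exon bases, and how reads in that stretch were assigned is not given in the sources used here.

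ITGB7 (ENSG00000139626.16, chr12:53191318-53207307), the partner of α4 and αE in gut homing, was likewise higher with either retinoid alone. Untreated libraries held 153, 163, 151 and 187 normalized counts, those with ATRA 277, 324 and 279 and those with Am80 259.9, 228 and 302. The combinations gave 195, 165 and 168 beside ATRA and 179, 135 and 212 beside Am80. Retinoid libraries lay above all untreated ones, whereas those with inhibitors overlapped them. The log2 fold change was 0.84 ± 0.13 with ATRA and 0.68 ± 0.13 with Am80 (SE, limma adjusted p = 6.65e-05 and 5.77e-04), and 0.11 ± 0.13 and 0.08 ± 0.13 (SE) with inhibitors. The call with Am80 was lost without Am80 replicate 3, at 0.58. ZNF740, on the opposite strand, covers 42.1% of its exon bases at a mean of 1483 normalized counts. On the log2 scale ZNF740 differed by 0.18 with ATRA and by -0.30 on adding inhibitors to ATRA. The assignment of reads between ITGB7 and ZNF740 is not given in the sources used here, and the part of ZNF740 in the ITGB7 counts was not tested.

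ITGB4 (ENSG00000132470.14, chr17:75721328-75757818), the partner of α6 in hemidesmosomes, was scarce and noisy. It held 29.3, 16.6, 28.6 and 32.1 normalized counts in untreated libraries, 21.2, 34.5 and 25.9 with ATRA and 28.8, 19.7 and 27.5 with Am80. With inhibitors it held 8.79, 17.4 and 17.05 beside ATRA and 13.2, 27.5 and 18.02 beside Am80. The ATRA combination overlapped the untreated range and lay below both retinoids alone, while the remaining groups overlapped each other. With ATRA and inhibitors it fell by 0.86 on the log2 scale against untreated cells (SE 0.30, limma adjusted p = 0.0165), a call lost without replicate 1 of that group at -0.56. ITGB5, an αV partner, ranged from 319 to 411 normalized counts in untreated libraries and 417 to 485 with ATRA, with log2 differences of 0.30, 0.30, 0.03 and 0.22, none of them called.

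The ICAMs are immunoglobulin-family ligands of the β2 integrins, and ICAM1, ICAM4, ICAM5 and ICAM3 lie in a cluster on chromosome 19. ICAM1 (ENSG00000090339.9, chr19:10270835-10286615), the ligand of LFA-1 and of αM with β2, had the largest change of any member in each comparison with untreated cells. Untreated libraries held 58.6, 52.6, 54.8 and 59.8 normalized counts, those with ATRA 256, 286 and 251 and those with Am80 279, 269 and 283. Where inhibitors were added, the counts were 311, 287 and 339.9 beside ATRA and 384, 371 and 348 beside Am80. The 3 libraries of Am80 with inhibitors were the highest of all, and no treated library was within reach of the untreated ones. The log2 fold changes were 2.21 ± 0.09, 2.28 ± 0.09, 2.45 ± 0.09 and 2.68 ± 0.09 (SE, limma adjusted p from 1.80e-15 to 5.76e-14). The antisense gene AC011511.5 covers 21.99% of its exon bases and had at most 3 reads per library. How reads in the shared stretch were assigned is not given in the sources used here.

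ICAM3 (ENSG00000076662.11, chr19:10333776-10339823), the ICAM of resting leukocytes, rose in all 4 groups from a low level. Untreated libraries held 6.97, 12.01, 11.2 and 14.4 normalized counts, those with ATRA 24.1, 26.7 and 30.97 and those with Am80 39.9, 25.9 and 26.04. Counts in the combinations were 41.98, 26.1 and 46.6 beside ATRA and 55.9, 32.99 and 38.6 beside Am80. All treated libraries lay above the untreated ones, and the treated groups overlapped each other except ATRA alone and Am80 with inhibitors. The log2 fold changes were 1.25 ± 0.26, 1.39 ± 0.26, 1.69 ± 0.26 and 1.85 ± 0.26 (SE, limma adjusted p from 5.43e-06 to 0.00117). An antisense gene (AC114271.1) covers 71.2% of its exon bases, with a mean of 13.4 normalized counts. The log2 fold changes of that gene were -0.79 with ATRA, -0.08 with Am80, -0.64 in the ATRA combination and -1.25 in the Am80 combination, and limma called it lower in the last and on adding inhibitors to Am80 (-1.17). How reads of the 2 strands were assigned is not given in the sources used here.

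ICAM2 (ENSG00000108622.11, chr17:64002594-64020634), an LFA-1 ligand of endothelium and platelets, was called higher in both groups with inhibitors and in neither retinoid alone. Untreated libraries held 12.6, 15.7, 8.72 and 18.8 normalized counts, those with ATRA 9.64, 22.4 and 26.6 and those with Am80 23.2, 16.1 and 30.4. With inhibitors the counts were 40.03, 34.8 and 45.5 beside ATRA and 36.2, 42.6 and 32.2 beside Am80. Every library with inhibitors was above every library without them, while both retinoids alone overlapped the untreated range. The log2 fold change was 1.499 ± 0.31 in the ATRA combination and 1.39 ± 0.31 in the Am80 combination (SE, limma adjusted p = 2.75e-04 and 6.68e-04), against 0.40 ± 0.31 and 0.70 ± 0.31 (SE) for ATRA and Am80 alone. With Am80 alone it was called without untreated replicate 4 (0.85), ATRA replicate 1 (0.70) or Am80 replicate 2 (0.93). PRR29, on the opposite strand, covers 26.8% of its exon bases and had at most 9 reads per library. The assignment of reads between ICAM2 and PRR29 is not given in the sources used here.

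ICAM5 (ENSG00000105376.5, chr19:10289981-10296778), the ICAM of neurons, fell with the combinations. Untreated libraries held 96.2, 71.1, 71.00 and 101 normalized counts, those with ATRA 56.9, 69.01 and 74.2 and those with Am80 56.6, 50.2 and 73.05. The combinations gave 55.6, 54.3 and 35.2 beside ATRA and 50.4, 43.98 and 68.2 beside Am80. Only the groups with inhibitors lay wholly below the untreated range. They fell by 0.81 and 0.64 on the log2 scale (SE 0.20, limma adjusted p = 0.0016 and 0.00983). The second call was lost when untreated replicate 1 (-0.57) or 4 (-0.55) or replicate 2 of the Am80 combination (-0.50) was left out.

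Adding the inhibitors to a retinoid moved fewer members. Against ATRA alone, 1 member rose (ICAM2) and 3 fell (ITGB3, ITGB7 and ITGB4), beside 8.15% and 11.4% of all genes, and against Am80 alone none rose and 2 fell (ITGB3 and ITGB7), beside 6.81% and 8.9% of all genes. ITGB3 fell by 0.85 on the log2 scale beside ATRA and by 0.79 beside Am80 (SE 0.25 each, limma adjusted p = 0.00733 and 0.0143). ITGB7 fell by 0.73 and by 0.60 (SE 0.14 each, adjusted p = 3.17e-04 and 0.00236). Beside Am80 the call of ITGB3 was lost without Am80 replicate 1 (-0.72) and that of ITGB7 without Am80 replicate 3 (-0.50), and both were lost without replicate 2 of Am80 with inhibitors (-0.55 and -0.42). ICAM2 rose by 1.10 ± 0.33 beside ATRA (SE, adjusted p = 0.00861), a call lost without ATRA replicate 1 at 0.68 (adjusted p = 0.0768 by limma), and differed by 0.68 ± 0.33 beside Am80 (SE, adjusted p = 0.103). ITGB4 fell by 0.90 beside ATRA (SE 0.32, adjusted p = 0.023), which was lost without ATRA replicate 2 (-0.72) or replicate 1 of ATRA with inhibitors (-0.60).

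ITGAM was not called in either of these comparisons. Its log2 fold change on adding inhibitors was 0.48 ± 0.16 beside ATRA (SE, adjusted p = 0.0177 by limma) and 0.33 ± 0.16 beside Am80 (SE, adjusted p = 0.115), with 95% intervals of 0.15 to 0.82 and -0.01 to 0.66. ITGAL differed in the opposite direction, by -0.39 ± 0.08 and -0.25 ± 0.08 (SE, adjusted p = 7.11e-04 and 0.0249), under the limit as well. For ICAM1 the values were 0.24 ± 0.10 and 0.41 ± 0.10 (SE, adjusted p = 0.0468 and 0.00236), and for ITGB1 0.36 ± 0.07 and 0.25 ± 0.07 (SE, adjusted p = 1.38e-04 and 0.0054). The median over the 24 members was -0.22 beside ATRA and -0.07 beside Am80, against -0.02 and -0.01 over all genes. Scaling to total reads split all genes into 676 higher and 2551 lower beside ATRA (1193 and 1668 with the deposited factors) and 673 and 1875 beside Am80 (997 and 1303), and the members into 1 and 5, and 0 and 2.

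**Figure D4:**
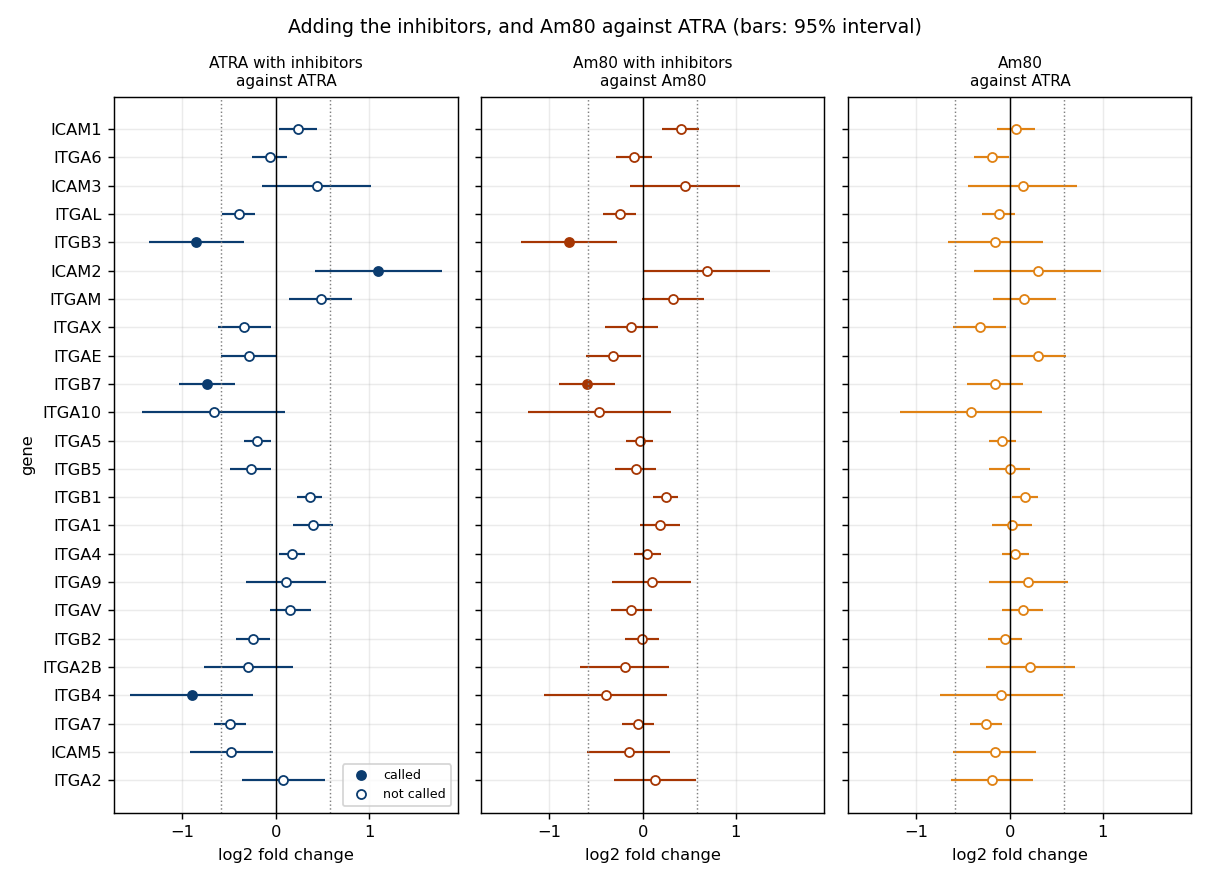
log2 fold changes (points, with 95% intervals) of the 24 tested members on adding inhibitors to ATRA, on adding them to Am80, and for Am80 against ATRA. Filled points are called and dotted lines mark 1.5-fold. ITGB3 and ITGB7 are called lower with both retinoids, ICAM2 higher and ITGB4 lower with ATRA only, and no point is called for Am80 against ATRA.

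Am80 and ATRA, compared at the same dose and time, gave no called difference in any member. Among all genes 0.0273% were called higher and 0.0205% lower with Am80 than with ATRA, which is 4 and 3 genes, and 2042 had an unadjusted p under 0.05. These counts of all genes were not stable: 10 of the 16 libraries gave none when left out, whereas limma called 55 higher and 33 lower without Am80 replicate 3, 17 and 20 without untreated replicate 4 and 16 and 12 without ATRA replicate 3. The replicate block gave 17 and 17. Only untreated cells have a replicate 4, so the block and the fit without that library are not separate checks. edgeR gave 11 and 5, DESeq2 18 and 7, and a fit of these 2 groups alone none. The log2 difference of Am80 and ATRA over the 24 members ran from -0.41 (ITGA10) to 0.30 (ICAM2), the smallest adjusted p was 0.164 by limma (ITGA7), and 5 members (ITGA6, ITGA7, ITGAE, ITGAX and ITGB1) had an unadjusted p under 0.05. edgeR and DESeq2 on the recovered reads called 0 members as well, as did limma under every other alternative. For 13 of the 24 the 95% interval of the difference lay within 1.5-fold either way, among them ITGAM at -0.18 to 0.49, ITGAL at -0.30 to 0.06, ICAM1 at -0.14 to 0.27 and ITGB2 at -0.24 to 0.13. For the other 11, mostly scarce genes, the interval reached past 1.5-fold, as for ICAM2 at -0.38 to 0.98, ITGB3 at -0.67 to 0.36 and ITGAX at -0.61 to -0.04.

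With inhibitors present, the difference of Am80 and ATRA ran from -0.22 (ITGA6) to 0.41 (ITGB4), and limma called no gene (0% higher and 0% lower), nor did edgeR, while DESeq2 on the recovered reads called 14 higher and 2 lower, and 2656 genes had an unadjusted p under 0.05. The 0 was not stable over all genes, since limma called 70 higher and 57 lower in a fit of these 2 groups alone. It called 47 and 39 without untreated replicate 4, and 21 and 17 without Am80 replicate 2. The replicate block gave 43 and 41, which is not separate from leaving out untreated replicate 4, since the block fits that library exactly. Leaving out a library of ATRA with inhibitors gave 1 and 0 (replicate 1), 5 and 1 (replicate 2) or 0 and 1 (replicate 3), and leaving out replicate 3 of Am80 with inhibitors 0 and 1. Of the members 4 had an unadjusted p under 0.05 (ITGA6, ITGA7, ITGB2 and ICAM1), and 16 had a 95% interval within 1.5-fold, ITGAM included at -0.33 to 0.34. The interaction (the change on adding inhibitors to Am80 minus that on adding them to ATRA) was called for no gene either by limma (0% in both directions) or edgeR, and for 7 genes, all higher, by DESeq2. Of all genes 2211 had an unadjusted p under 0.05, and limma called 19 higher and 7 lower without Am80 replicate 3. In ITGA7, the 1 member with an unadjusted p under 0.05, it was 0.44 ± 0.12 (SE, adjusted p = 0.226 by limma), and no alternative called a member in either comparison. The calls of ICAM2 and ITGB4 beside ATRA alone are therefore not shown to differ from their changes beside Am80, since their interactions were -0.42 ± 0.46 and 0.51 ± 0.45 (SE, adjusted p = 0.673 and 0.59).

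Genes around the integrins were examined as 4 further lists. Of 31 activators and cytoplasmic linkers, 29 were tested. With ATRA 5 rose and none fell, beside 6.52% and 2.94% of all genes, and with Am80 6 rose and 1 fell (6.41% and 3.76%). With ATRA and inhibitors 7 rose and 3 fell (14.2% and 14.8% of all genes). With Am80 and inhibitors 7 rose and 1 fell (12.9% and 13.1%), and no test was run on these counts. PXN (paxillin), an adaptor of focal adhesions, went from 119 ± 7.096 normalized counts in untreated cells (SD, n = 4) to 691 ± 63.2 with ATRA and 614 ± 57.8 with Am80 (SD, n = 3 each), log2 fold changes of 2.52 and 2.35. It was lower with inhibitors added, falling by 0.94 beside ATRA and by 0.66 beside Am80 on the log2 scale. APBB1IP (RIAM), which brings talin to integrins, rose by 1.83, 1.81, 1.80 and 1.77 with ATRA, Am80 and the 2 combinations. TLN1 (talin), which switches integrins to their active form, rose by 0.84, 0.75, 0.59 and 0.76. FERMT1, an epithelial kindlin, fell by 0.65 with Am80, by 0.75 with ATRA and inhibitors and by 0.92 with Am80 and inhibitors.

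Of 20 other integrin ligands 9 were tested, and THBS1 (thrombospondin 1) was called in all 4 comparisons with untreated cells, at 2.15, 1.98, 1.72 and 1.86 on the log2 scale. JAM3, a junctional ligand of αM with β2, fell by 0.77 with Am80, LAMB1, a laminin chain, rose by 0.83 with ATRA and inhibitors, and LAMA5, another, fell by 0.70 on adding inhibitors to ATRA. Fibrinogen genes (FGA, FGB, FGG) had no reads, and VCAM1 and CDH1 had at most 3. Of 11 membrane proteins associated with integrins, all tested, none was called with a retinoid alone. PLAUR, the urokinase receptor, which associates with αM and β2, went from 619.6 ± 66.4 normalized counts (SD, n = 4) to 3357 ± 515 in the ATRA combination and 4550.2 ± 466 in the Am80 combination (SD, n = 3 each). Adding inhibitors raised it by 1.90 beside ATRA and 2.36 beside Am80 on the log2 scale. CD53, a leukocyte tetraspanin, rose by 0.74 and 0.78 against untreated cells with the combinations, and CD151, a tetraspanin partner of laminin-binding integrins, fell by 0.75 with ATRA and inhibitors. Of 5 selectin genes and ligands 2 were tested, and SELPLG, the ligand of P-selectin, fell by 0.59 with ATRA, by 0.87 with ATRA and inhibitors and by 0.79 with Am80 and inhibitors. Of the 8 myeloid markers, LYZ (lysozyme) fell by 0.67 with ATRA, and SPI1, CEBPA (2 myeloid transcription factors) and MPO (myeloperoxidase) fell by 0.59, 0.66 and 0.60 with ATRA and inhibitors, while ITGAM rose in that group. None of the 8 was called in either Am80 group against untreated cells. On adding inhibitors LYZ rose by 0.70 beside ATRA, and CEBPA fell by 0.81 beside ATRA and by 0.67 beside Am80. The summed level of the 8 was 22978 to 28211 normalized counts in untreated libraries, 20467 to 21714 with ATRA, 20011 to 24065 with Am80, 20403 to 21466 in the ATRA combination and 21423 to 22590.1 in the Am80 combination, and their part in the changes of the integrins was not tested.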

How the data were processed

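RNA-seq of OCI-AML3 cells was made into 1 deposited table of gene-level values for 16 libraries. Per the labels' processing notes, the authors used FastQC, cutadapt, STAR, featureCounts and DESeq2, without versions, and the genome build, annotation release and strand setting are not given in the sources used here. The labels name other extraction and library kits than the study's methods, which state a strand-marking kit and 51-cycle single-end reads.

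The deposited values are a signal in normalized counts, read counts divided by a size factor per library. Each library's values were whole multiples of 1 step within a tolerance of 0.001 reads (100% of values), so whole reads were recovered for depth and for count tests. The main test was limma 3.58.1 (R 4.3.3) with a mean-variance trend on log2(normalized count + 1), in 1 fit of all 16 libraries and 5 groups over the 14643 genes that averaged 10 or more, with Benjamini-Hochberg adjustment over all of them. The pseudocount understates the change of low genes. Calls needed an adjusted p under 0.05 and over 1.5-fold. The test was tried on simulated counts before use. Alternatives were edgeR 4.0.16 quasi-likelihood with TMM and DESeq2 1.42.0 on the recovered reads, pseudocounts of 0.5 and 5, no filter, a mean of at least 50, scaling to total reads, a replicate block, only the groups compared, other call limits, and each library left out in turn.

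Intervals of log2 fold changes were built from limma's standard errors, so like the p-values they measure the spread between these libraries. The floor of 3 reads covers counting error only. Positions and lengths are from GENCODE 29 (GRCh38), matched by gene identifier, and the build of the deposited table may differ. Lengths are the union of annotated exons. All 62700 identifiers had a name entry, which for some genes is only the identifier itself. Tables were handled in Python 3 with pandas. All members are accounted for, and values per library are given for every member called at least once and for ITGAM and ITGB2; of the other lists, up to 3 called genes with the largest change are named per comparison. A few results on genes outside the members are not reported here. The members, lists and tests were chosen with earlier results of these data known.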

Additional observations from a re-analysis of the deposited data

Results flagged for a closer look

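In untreated cells, ITGAL had 1 library far from the others: replicate 4 held 731 normalized counts, whereas the nearest library held 852 and the highest 867. The gap was 0.891 of the whole range, above Dixon's 95% critical value for 4 libraries. The 24 tested members were examined in the untreated group, the only one with 4 libraries, and 1 passed that value, as chance lets about 1 in 20 groups do. Every treated library held more ITGAL than all 4 untreated ones.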

How the results depend on the processing

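Of the 46 changes called among the members, none reversed, and 34 were called under every alternative that tested them other than the stricter call rule. Of the 34, 10 (of ITGB3, ICAM2 and ICAM3) were not tested with a mean of at least 50. Requiring an adjusted p under 0.01 and over 2-fold gave 5 members with Am80 against untreated (10 as reported), 6 with ATRA and inhibitors (12), 6 with Am80 and inhibitors (10), 1 on adding inhibitors to ATRA (4) and 0 on adding them to Am80 (2). With no limit on the fold change there were 16 with Am80 and inhibitors, 15 on adding inhibitors to ATRA and 5 on adding them to Am80. A filter at a mean of 50 left 1 on adding inhibitors to ATRA and 1 to Am80, since scarce members were no longer tested, and DESeq2 gave 1 for the latter, where ITGB7 was just under the limit. Scaling to total reads added ITGA7 with Am80 and inhibitors (-0.68) and ITGA7 and ICAM5 on adding inhibitors to ATRA (-0.64 and -0.62). Without Am80 replicate 3 ICAM5 was called with Am80 (-0.64), and without replicate 3 of Am80 with inhibitors ITGA10 with ATRA (0.84). Without a filter, ITGB4 on adding inhibitors to ATRA missed the threshold (adjusted p = 0.0550 by limma). Leaving out 1 library gave 8 to 10 members with ATRA, 9 to 11 with Am80, 11 to 12 with ATRA and inhibitors, 8 to 10 with Am80 and inhibitors, 3 to 4 on adding inhibitors to ATRA and 0 to 2 on adding them to Am80 (0 without replicate 2 of Am80 with inhibitors). The difference of ITGAM between Am80 and ATRA with inhibitors, 0.00 as reported, was negative with edgeR (-0.00025), with scaling to total reads (-0.033) and ranged over both signs without single libraries (-0.132 to 0.0767), all far inside its interval. Deviations from the group means gave no sign that replicate numbers pair the libraries. Over 30 same-numbered pairs of libraries from different groups their median correlation was -0.005, and 4 exceeded 0.1. Over 72 differently numbered pairs it was -0.009, and 11 exceeded 0.1. With the replicate number as a block, 10 members were called with ATRA, 11 with Am80 and 9 with Am80 and inhibitors. In the last, the calls of ITGAX and ICAM5 were lost (0.54 and -0.55), and the remaining counts were those reported. Only untreated cells have a replicate 4, so these 2 values equal those without that library and are not separate evidence. For 18 of 24 members the level per kilobase moved by over 1 SD with the longest transcript as the length, by a factor of 1.01 to 2.43 over the 24, and ITGAM again ranked number 15 of 26 chains. Depth limited the scarce members most, ITGA10, ITGB4, ICAM2 and ICAM3 among them.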
